A study of Homo sapiens with 18 samples.

Results

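The receptors for the interferons, for interleukin-10 (IL-10) and for interleukin-6 (IL-6) were followed in cells of the human line THP-1, which derives from an acute monocytic leukaemia. The 8 genes IFNGR1, IFNGR2, IFNAR1, IFNAR2, IL10RA, IL10RB, IL6R and IL6ST were chosen by symbol, out of 63677 genes in the count table. Each symbol matched 1 Ensembl identifier, and all 8 were among the 16678 genes that passed the filter on low counts. Cells had been transfected with an siRNA against TRAFD1 (KD) or with a scrambled siRNA (SCR), each at 25 nM, or had received no siRNA (WT). At 72 h after transfection they were given lipopolysaccharide (LPS), a bacterial cell wall component, at 10 ng/ml or medium alone (unstimulated) for 4 h. This gave 6 groups of 3 libraries, and the labels number the unstimulated libraries 1 to 3 and the LPS libraries 4 to 6. The labels describe WT once as untreated cells and once as cells given the transfection mix without siRNA, so that in SCR against WT the siRNA and the reagent cannot be told apart. The knockdown was transient, used 1 siRNA against TRAFD1 and was made in 1 cell line, and the p-values below measure only the spread between these cultures.

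Levels are given as CPM, counts per 1000000 counts of a library whose size was scaled by TMM, and differences are log2 fold changes with their standard error (SE). A difference was called at an adjusted p under 0.05, from an edgeR quasi-likelihood fit to all 18 libraries with adjustment over all genes tested. The library totals lay between 8206023 and 22344279 counts, and mitochondrial genes held at most 5.204% of a library. The 8 monocyte markers examined were detected in every group, with a summed level of 426 to 546 CPM per library. FCGR1A alone gave 249 to 342 CPM of this, and MPO, the lowest, stood at 0.156 to 2.36 CPM. The T cell, erythroid and epithelial markers summed to at most 0.616 CPM per library, the B cell markers to 1.74 to 4.28 CPM, the fibroblast markers to 0.604 to 2.94 CPM and the NK cell markers to 10.3 to 17.2 CPM. TRAFD1 stood at 11.6, 5.37 and 9.02 CPM in unstimulated KD and at 26.8, 20.1 and 24.3 CPM in unstimulated SCR (log2 fold change -1.45 ± 0.23 SE, adjusted p = 0.0277). With LPS it stood at 15.8, 14.0 and 13.8 CPM in KD and at 21.9, 27.5 and 18.7 CPM in SCR (-0.65 ± 0.22, adjusted p = 0.262). The KD libraries were below all SCR libraries in both states, and the difference passed the threshold without LPS but not with LPS.

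These receptors belong to the class II cytokine receptor family and, for the IL-6 receptor, to the class I family, and all of them signal through Janus kinases (JAK) bound to their cytoplasmic tails. The interferon-γ receptor pairs a ligand-binding chain, IFNGR1, with a signalling chain, IFNGR2, and uses JAK1 and JAK2. The type I interferon receptor consists of IFNAR1 and IFNAR2 and uses JAK1 and TYK2. The IL-10 receptor pairs the ligand-specific IL10RA with IL10RB, a chain shared with the receptors for IL-22 and the λ interferons, and acts through STAT3. In the IL-6 receptor, IL6R binds the cytokine and IL6ST, also known as gp130, carries the signal to STAT3, a role it also plays for IL-11, LIF and oncostatin M. In monocytes and macrophages, IL-10 is known to restrain the response to LPS, and interferon-γ to enhance it.

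In GRCh37, the build of the files, 4 of the 8 genes lie on the plus strand of chromosome 21 within 274.1 kb. They are, in order, IFNAR2 (chr21:34577587-34637980), IL10RB (chr21:34638672-34683725), IFNAR1 (chr21:34696692-34732170) and IFNGR2 (chr21:34775719-34851655). The others are IFNGR1 (chr6:137518620-137540586, minus strand), IL10RA (chr11:117857085-117873752, plus strand), IL6R (chr1:154377669-154441926, plus strand) and IL6ST (chr5:55230923-55290850, minus strand). The annotation also holds a readthrough gene that joins IFNAR2 and IL10RB, IFNAR2-IL10RB, and it had 0 counts in all 18 libraries. TMEM50B lies on the minus strand and overlaps IFNGR2 from 34804792 to 34851655. By these coordinates the 3′ ends lie at opposite ends of the shared stretch, at 34851655 for IFNGR2 and at 34804792 for TMEM50B. The windows in which reads were counted were not available, so that an overlap of them was not checked. Whether strand was used in counting is not given in the sources used here. Reads in any part counted for both genes could be told apart only if it was.

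The promoters of 3 members whose RNA changed with LPS are shown because each held a motif of a factor that is activated downstream of the LPS receptor. The sequences are from RefSeq (GRCh38.p14), with 250 bases before and 50 after the annotated start, and 7 of the 8 members had an entry. No entry was found for IFNAR2. IL6ST, which also rose with LPS, held none of the 4 motifs searched, and its window is not printed. Capitals mark the motif, read 5′ to 3′ on the strand of the gene.
IFNGR2 promoter, chr21:33403163-33403462, plus strand: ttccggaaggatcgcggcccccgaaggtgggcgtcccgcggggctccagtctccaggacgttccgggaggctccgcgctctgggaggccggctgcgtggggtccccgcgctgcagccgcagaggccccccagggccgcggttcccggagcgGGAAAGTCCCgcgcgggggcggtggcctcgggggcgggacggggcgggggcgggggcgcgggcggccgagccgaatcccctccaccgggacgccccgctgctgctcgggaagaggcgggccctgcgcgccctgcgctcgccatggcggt
IL10RA promoter, chr11:117989695-117989994, plus strand: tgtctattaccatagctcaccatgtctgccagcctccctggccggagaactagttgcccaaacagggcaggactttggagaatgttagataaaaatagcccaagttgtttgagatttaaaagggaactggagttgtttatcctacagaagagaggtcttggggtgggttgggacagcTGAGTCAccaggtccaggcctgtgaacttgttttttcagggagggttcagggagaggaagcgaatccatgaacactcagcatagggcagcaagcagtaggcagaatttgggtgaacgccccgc
IL6R promoter, chr1:154405093-154405392, plus strand: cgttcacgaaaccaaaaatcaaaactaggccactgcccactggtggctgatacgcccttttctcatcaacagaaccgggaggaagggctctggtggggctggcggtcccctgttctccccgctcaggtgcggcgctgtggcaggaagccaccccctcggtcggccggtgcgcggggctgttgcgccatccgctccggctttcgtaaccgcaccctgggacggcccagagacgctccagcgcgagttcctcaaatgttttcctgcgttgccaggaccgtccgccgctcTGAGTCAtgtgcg
The IFNGR2 window held GGAAAGTCCC at positions 152 to 161, which is, on the other strand, the NF-kB motif (GGGA, any base, then TTTCC), and 0.558% of 35116 RefSeq promoters of this length held that motif on either strand. The IL10RA window held the AP-1 motif TGAGTCA at positions 178 to 184, and the IL6R window held it at positions 288 to 294. That motif was present in 4.95% of all promoters. The IL10RB window, not printed, held the STAT motif TTCNNNGAA at positions 262 to 270, against 7.66% of all promoters. The interferon response motif (GAAA, any 2 bases, then GAAA), present in 3.57% of all promoters, was found in none of the 7 matched members. No overlap between the motifs occurred in these windows, and a match describes letters only.

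IL6R was the most abundant of the 8 in every group, and IL6ST and IFNGR1 were the least abundant. In unstimulated WT cells the order of the mean levels was IL6R (573 ± 11.6 CPM, SD, n = 3), IL10RB (175 ± 18.8), IFNAR2 (120.5 ± 4.22), IFNGR2 (106.5 ± 4.10), IL10RA (81.6 ± 10.1), IFNAR1 (50.3 ± 5.70), IL6ST (16.7 ± 2.68) and IFNGR1 (10.9 ± 2.70). The libraries of neighbouring genes in this order did not overlap. In unstimulated SCR and KD cells the libraries of IFNAR2 and IFNGR2 overlapped, as did those of IL6ST and IFNGR1, and in KD also those of IL10RA and IFNAR1. With LPS, IFNGR2 took the second place in all 3 conditions, with means of 249 ± 14.3 CPM in WT, 227 ± 3.67 in SCR and 197 ± 8.12 in KD. The libraries then overlapped for IL10RB and IFNAR2 in WT and for IL6ST and IFNGR1 in SCR and KD. Levels were compared between genes without a length term, because 3′ libraries are meant to give 1 fragment per transcript. Only the last 500 bases of each gene were counted, and the share of its reads that fell there is not known. The order therefore describes counts in these windows, and whether it holds for the transcripts was not tested.

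**Figure D1:**
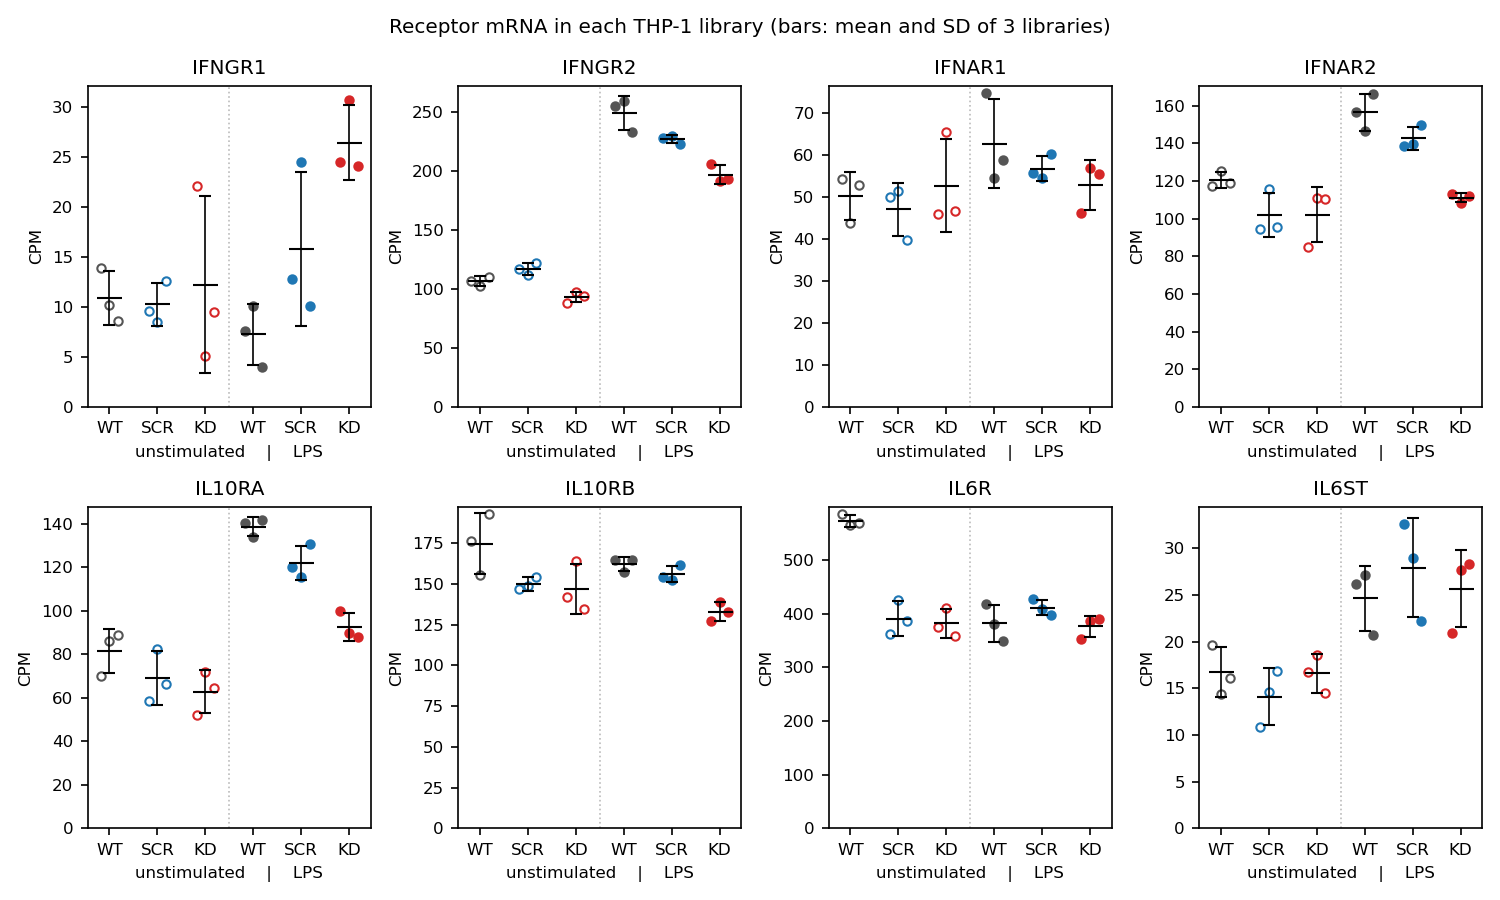
CPM of each receptor gene in each of the 18 libraries (points), with the mean and SD of the 3 libraries of a group (bars), for unstimulated (open) and LPS-stimulated (filled) WT, SCR and KD cells. IFNGR2 and IL10RA sit higher with LPS in every condition, and IL6R in unstimulated WT (565 to 586 CPM) sits above the other 5 groups (349 to 427 CPM).

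The first question was which receptor genes responded to LPS in WT cells. IFNGR2, IL10RA, IFNAR2 and IL6ST rose and IL6R fell, so that 5 of the 8 members were called against 14.3% of all genes tested (7.01% upward and 7.26% downward). IFNGR1, IFNAR1 and IL10RB did not pass the threshold. In SCR cells 4 members were called, all upward, against 17.2% of all genes (8.64% upward), and in KD cells 3, all upward, against 11.5% (6.41% upward). The LPS libraries did not overlap the unstimulated ones for 6 members in WT, 5 in SCR and 4 in KD, against 32.5%, 37.3% and 25.4% of all genes. The median log2 fold change of the 8 members was 0.35 in WT, 0.56 in SCR and 0.34 in KD, beside -0.03, -0.03 and -0.003 over all genes tested.

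IFNGR2, the signalling chain of the interferon-γ receptor, rose in all 3 conditions. It stood at 107.2, 102.2 and 110.3 CPM in unstimulated WT and at 255.2, 259.6 and 233.0 CPM with LPS. All LPS libraries were above all unstimulated ones, by a log2 fold change of 1.23 ± 0.08 (adjusted p = 3.13e-10), or 2.34-fold. In bulk RNA, more cells with the transcript and more transcript per cell cannot be told apart. In SCR the level went from 117.1, 111.9 and 122.1 CPM to 228.5, 230.0 and 223.0 CPM (0.96 ± 0.08, adjusted p = 2.50e-08). In KD it went from 88.5, 97.2 and 94.0 CPM to 206.3, 191.5 and 193.1 CPM (1.08 ± 0.08, adjusted p = 5.45e-09). The groups did not overlap in any condition, and the call was kept in all 6 fits that left out 1 library in each condition. TMEM50B, which overlaps the 3′ part of IFNGR2 on the other strand, had log2 fold changes of -0.32, -0.13 and -0.02 in WT, SCR and KD, none of them called.

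IFNGR1, the ligand-binding chain, was not called in any condition. It was low and variable, at 13.8, 10.2 and 8.58 CPM in unstimulated WT and 7.59, 10.1 and 4.02 CPM with LPS. The groups overlapped, and the log2 fold change was -0.58 ± 0.41 (95% interval -1.43 to 0.28, adjusted p = 0.407). In SCR it stood at 9.600, 8.50 and 12.6 CPM without and 12.7, 24.5 and 10.1 CPM with LPS (0.64 ± 0.39, adjusted p = 0.295). In KD it stood at 22.1, 5.04 and 9.49 CPM without and 24.5, 30.7 and 24.1 CPM with LPS (1.10 ± 0.38, adjusted p = 0.0676). The KD groups did not overlap, and without KD unstimulated library 1, the highest of its group, the value in KD was 1.86 with an adjusted p of 0.000856. When genes with low counts were kept in the table, IFNGR1 was called in SCR (0.64, adjusted p = 0.0194) and in KD (1.10, adjusted p = 1.25e-06). This was the only 1 of 5 alternatives, beside leaving out 1 library, that called it in either condition.

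IFNAR2, the chain of the type I interferon receptor that binds interferon most tightly, rose in WT and SCR. In WT it went from 117.2, 125.2 and 119.0 CPM to 156.5, 146.5 and 166.5 CPM, with no overlap between the groups. The log2 fold change was 0.38 ± 0.10 (adjusted p = 0.0174), and the call was lost in the fits without WT unstimulated library 1 or 3 or WT LPS library 4 or 6, with adjusted p from 0.0558 to 0.0897. In SCR it went from 94.6, 115.6 and 95.6 CPM to 138.6, 139.5 and 149.9 CPM (0.49 ± 0.11, adjusted p = 0.00266). In KD the libraries stood at 85.2, 110.8 and 110.6 CPM without and at 113.0, 108.5 and 112.0 CPM with LPS, and the difference was not called. The difference between the LPS responses of KD and SCR was -0.37 ± 0.15 for IFNAR2 (95% interval -0.67 to -0.06), with an adjusted p of 0.613.

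IFNAR1, the other chain of that receptor, was not called in any of the 12 comparisons. Its level went from 54.3, 43.8 and 52.9 CPM to 74.7, 54.6 and 58.8 CPM with LPS in WT, a log2 difference of 0.31 with a 95% interval from 0.003 to 0.62 (adjusted p = 0.184). These groups did not overlap. Over all 18 libraries IFNAR1 ran from 39.8 to 74.7 CPM.

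IL10RA, the ligand-specific chain of the IL-10 receptor, rose in all 3 conditions. In WT it went from 70.0, 86.0 and 88.7 CPM to 140.2, 133.7 and 141.8 CPM, a 1.70-fold change (0.76 ± 0.13, adjusted p = 0.000240). In SCR it went from 58.4, 82.5 and 66.2 CPM to 120.0, 115.2 and 130.6 CPM (0.82 ± 0.13, adjusted p = 0.000144). In KD it went from 52.0, 71.9 and 64.5 CPM to 99.8, 89.7 and 87.7 CPM (0.56 ± 0.13, adjusted p = 0.00715). No LPS library overlapped the unstimulated libraries of its condition, and the calls were kept whichever of the libraries was left out. IL10RB, the shared chain, was not called in any condition. Its levels in WT were 176.2, 155.3 and 192.9 CPM without and 165.0, 157.4 and 164.8 CPM with LPS, and the groups overlapped.

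IL6ST, the signalling chain of the IL-6 receptor, rose in all 3 conditions from a low level. It went from 19.6, 14.3 and 16.1 CPM to 26.2, 27.2 and 20.7 CPM in WT (0.56 ± 0.19, adjusted p = 0.0480). In SCR it went from 10.9, 14.6 and 16.9 CPM to 32.7, 29.0 and 22.2 CPM (0.99 ± 0.19, adjusted p = 0.000945). In KD it went from 16.8, 18.6 and 14.5 CPM to 20.97, 27.7 and 28.4 CPM (0.63 ± 0.19, adjusted p = 0.0310). The LPS libraries were above the unstimulated ones in each condition. The WT call was lost without WT unstimulated library 2 or 3 or WT LPS library 4 or 5 (adjusted p from 0.137 to 0.164), and the KD call without KD unstimulated library 3 or KD LPS library 5 or 6 (0.110 to 0.136), in a fit to the KD libraries alone (0.0704) and with a correction for GC content (0.0520).

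IL6R, the ligand-binding chain of that receptor, was the only member called downward with LPS, and this was in WT. It stood at 586.4, 564.8 and 568.5 CPM in unstimulated WT and at 417.5, 381.5 and 348.7 CPM with LPS. The groups were far apart, by a log2 fold change of -0.58 ± 0.08 (adjusted p = 4.06e-05), a fall to 0.667 of the unstimulated level. CD14, a monocyte surface marker and LPS co-receptor, also fell with LPS, with log2 fold changes of -0.74 ± 0.21 (WT), -1.53 ± 0.21 (SCR) and -1.07 ± 0.21 (KD). It was the only 1 of the 8 monocyte markers called with LPS in WT and in SCR, against 14.3% and 17.2% of all genes. In KD, CD33 was called lower as well (-0.50 ± 0.13, adjusted p = 0.0137), against 11.5% of all genes called. The part of CD14 in the IL6R result was not tested. In SCR, IL6R stood at 362.3, 425.5 and 386.0 CPM without and 427.3, 409.4 and 398.5 CPM with LPS (0.07 ± 0.08, 95% interval -0.10 to 0.25). In KD it stood at 375.1, 411.8 and 359.1 CPM without and 353.8, 386.5 and 390.1 CPM with LPS (-0.02 ± 0.08, 95% interval -0.20 to 0.16). In both siRNA conditions the groups with and without LPS overlapped, and the sign of the KD value turned with a correction for GC content and in 2 fits that left out a library.

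**Figure D2:**
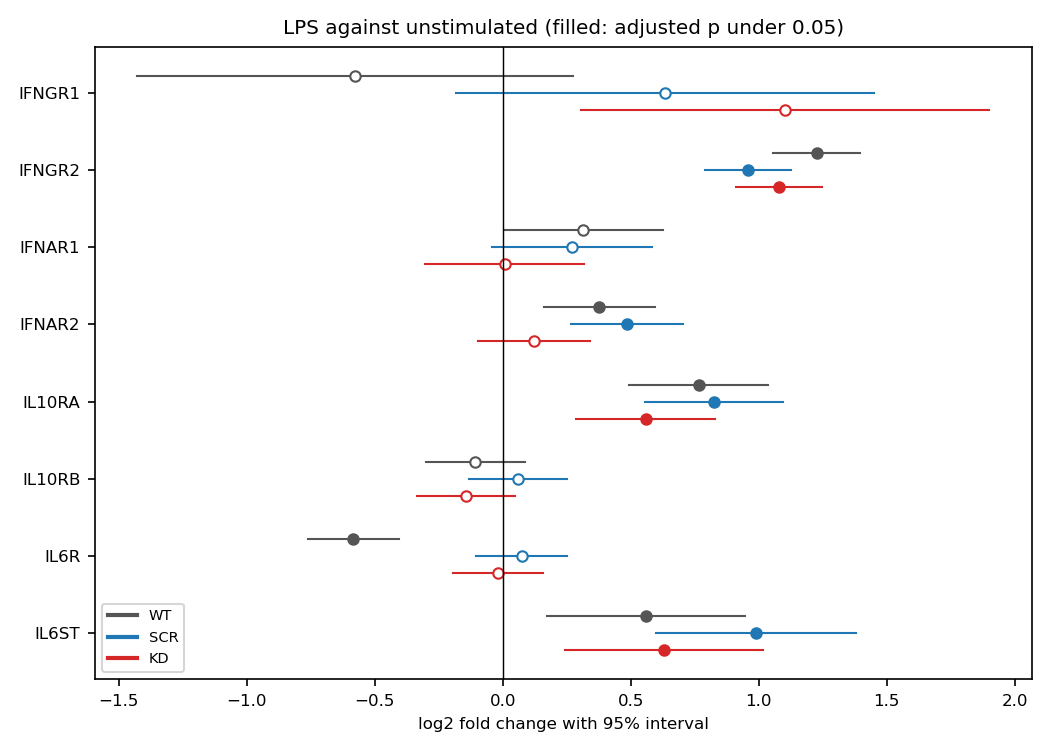
Log2 fold change of LPS-stimulated against unstimulated cells for each receptor gene in WT, SCR and KD, with its 95% interval (lines). Filled points have an adjusted p under 0.05. IFNGR2 lies between 0.96 and 1.23 in the 3 conditions, and IL6R lies at -0.58 in WT and near 0 in SCR and KD.

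The response of IL6R to LPS was then compared between conditions. It was higher in SCR than in WT by 0.66 ± 0.12 on the log2 scale (95% interval 0.41 to 0.91, adjusted p = 0.0161), and higher in KD than in WT by 0.56 ± 0.12 (0.31 to 0.81, adjusted p = 0.0424). IL6R was the 1 member called in each of these comparisons, against 0.234% of all genes for SCR (0.018% upward) and 0.36% for KD (0.06% upward). Both use the same WT libraries. IFNGR1 had larger differences that were not called, 1.21 ± 0.57 between SCR and WT (95% interval 0.03 to 2.39, adjusted p = 0.490) and 1.68 ± 0.56 between KD and WT (0.51 to 2.84, adjusted p = 0.181). With low-count genes kept, both IFNGR1 values were called (adjusted p = 0.00602 and 1.30e-06), and without KD unstimulated library 1 the value between KD and WT was 2.44 and was called (adjusted p = 0.00745). Of 5 alternatives beside leaving out 1 library, only the fit with low-count genes kept called either IFNGR1 value. Over all genes that fit called 241 and 729, against 39 and 60 with the filter. The SCR call of IL6R was lost in 6 of 12 fits without 1 library, with adjusted p from 0.0582 to 0.0767, namely without WT unstimulated 1, WT LPS 5 or 6, SCR unstimulated 1 or 3 or SCR LPS 4. Its KD call was lost in 9 of 12 such fits (0.0509 to 0.172), namely without WT unstimulated 1 or 3, KD unstimulated 3 or any of the WT or KD LPS libraries, and also with median-of-ratios scaling (0.0599) and in a fit to the 4 groups alone (0.113). Between KD and SCR the response to LPS was called for 0 of 8 members and 0% of all genes by edgeR and for 0 members by DESeq2. At an unadjusted p under 0.05, 1 member, IFNAR2, passed, against 7.64% of all genes.

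The next comparison asked whether the siRNAs changed the receptor genes in unstimulated cells. IL6R was lower in SCR than in WT by a log2 fold change of -0.55 ± 0.08 (adjusted p = 0.000893) and lower in KD than in WT by -0.59 ± 0.08 (adjusted p = 0.000168). It was the only member called in either comparison, against 3.23% of all genes in SCR against WT (1.45% downward) and 11.7% in KD against WT (5.85% downward). The groups did not overlap for 4 members in SCR against WT and for 3 in KD against WT, beside 22.6% and 24.3% of all genes. The highest siRNA library, at 425.5 CPM, was well below the lowest WT library, at 564.8 CPM. Both calls were kept in every fit that left out a library and under every alternative but the fold-change rule of the study, which asks for an absolute log2 fold change over 1. The comparisons share the WT libraries and are not independent of each other. CD14 moved the other way in the same comparisons, by 1.14 ± 0.20 in SCR against WT and 0.72 ± 0.20 in KD against WT (adjusted p = 0.00311 and 0.0232). It was the only one of the 8 monocyte markers called in them, and its part here was not tested either.

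Among the other members, the lowest adjusted p in unstimulated KD against WT was that of IL10RA (-0.38 ± 0.13, 0.0640), whose 52.0 to 71.9 CPM in KD overlapped the 70.0 to 88.7 CPM in WT. It was called without WT unstimulated library 1 (0.0378), without KD unstimulated library 2 (0.0297) and with low-count genes kept (0.0312). IL10RB gave -0.25 ± 0.09 in the same comparison (adjusted p = 0.0836), with KD libraries at 141.9, 164.0 and 134.9 CPM. Without KD unstimulated library 2 or WT unstimulated library 2 that value was -0.34 or -0.33 and was called (adjusted p = 0.0297 and 0.0292). IFNGR1 in unstimulated KD spanned 5.04 to 22.1 CPM, and its value against WT was 0.18 ± 0.39, which turned to -0.58 without KD library 1.

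Under LPS, 5 of the 8 members were called in KD against WT, where 10.8% of all genes were called (6.29% higher and 4.55% lower in KD). IFNGR1 was higher in KD and IFNGR2, IFNAR2, IL10RA and IL10RB were lower, and these 5 were the members whose libraries did not overlap, as held for 35% of all genes. TRAFD1 itself was not called in KD against WT under LPS (-0.23 ± 0.23, adjusted p = 0.563), and its libraries overlapped. Within KD, TRAFD1 rose with LPS (0.73 ± 0.23, adjusted p = 0.0456). In SCR against WT under LPS 0 members were called by edgeR and 0 by DESeq2, with 1, IFNGR1, at an unadjusted p under 0.05, against 0.114% of all genes called and 13.7% at the unadjusted p. The groups did not overlap for 3 members, against 22.8% of all genes. The values of both comparisons are given side by side, since they share the WT libraries.

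IL10RA stood at 140.2, 133.7 and 141.8 CPM in WT, at 120.0, 115.2 and 130.6 CPM in SCR and at 99.8, 89.7 and 87.7 CPM in KD. The KD libraries were below all SCR libraries, and these were below all WT libraries. KD against WT gave -0.58 ± 0.13 (adjusted p = 0.00823), and KD against SCR gave -0.40 ± 0.13 (adjusted p = 0.238). IFNAR2 had 156.5, 146.5 and 166.5 CPM in WT, 138.6, 139.5 and 149.9 CPM in SCR and 113.0, 108.5 and 112.0 CPM in KD, so that KD was below both other conditions, which overlapped each other. KD against WT gave -0.49 ± 0.11 (adjusted p = 0.00704) and lost its call without WT LPS library 6 (0.0525), and KD against SCR gave -0.36 ± 0.11 (adjusted p = 0.211).

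IFNGR2 was lower in KD (206.3, 191.5 and 193.1 CPM) than in WT (255.2, 259.6 and 233.0 CPM) by -0.34 ± 0.08 on the log2 scale (adjusted p = 0.0112). The groups did not overlap, and the call was lost without KD LPS library 5 (0.0604). IL10RB was lower in KD (127.2, 138.9 and 132.8 CPM) than in WT (165.0, 157.4 and 164.8 CPM) by -0.29 ± 0.09. Its adjusted p of 0.049995 lay just under the threshold, and the call was lost in all 6 fits without 1 library (0.0776 to 0.172) and with low-count genes kept (0.114). IL6R did not separate the conditions under LPS, where SCR against WT gave 0.11 ± 0.08 (95% interval -0.07 to 0.28) and KD against WT gave -0.02 ± 0.08 (-0.20 to 0.15).

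IFNGR1 was the member with the widest difference. Under LPS it stood at 7.59, 10.1 and 4.02 CPM in WT, 12.7, 24.5 and 10.1 CPM in SCR and 24.5, 30.7 and 24.1 CPM in KD. KD was above WT in every library, by 1.86 ± 0.41 (95% interval 1.02 to 2.70, adjusted p = 0.00792), and the call was lost without WT LPS library 6, the lowest (1.57, 0.0575). SCR against WT gave 1.13 ± 0.41 (adjusted p = 0.248), and KD against SCR 0.73 ± 0.38 (adjusted p = 0.461). With low-count genes kept in the table these were called as well (1.13 and 0.72, adjusted p = 2.05e-05 and 0.0213). Of 6 alternatives beside leaving out 1 library, it was the only 1 to call either. Over all genes it called 593 in SCR against WT and 425 in KD against SCR, against 19 and 0 with the filter.

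The annotated 3′ end of IFNGR1 is poor in G and C. GC content was taken from GENCODE v44lift37 transcripts, averaged per gene, and not from the windows in which reads were counted. The last 500 bases of its transcripts averaged 33.1% GC, the 3.50th percentile of the genes tested, whose median was 45.8%. IL6ST, at 34.3%, lay at the 5.38th percentile, and the other members lay between the 32.8th and the 76.2nd. In the 7 libraries where the 812 genes of lowest GC had a median log2 level above their mean, IFNGR1 lay 0.09 to 1.35 above its own mean, and in the other 11 libraries it lay between -1.54 and 0.08. IL6ST overlapped between these sets, at -0.26 to 0.70 and at -0.87 to 0.43. All 3 KD LPS libraries were among the 7, and no WT LPS library was. With a correction for GC content added after the data had been seen, IFNGR1 in KD against WT under LPS was 1.71 (adjusted p = 0.00486). The part of GC content in the level of IFNGR1 was not tested.

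**Figure D3:**
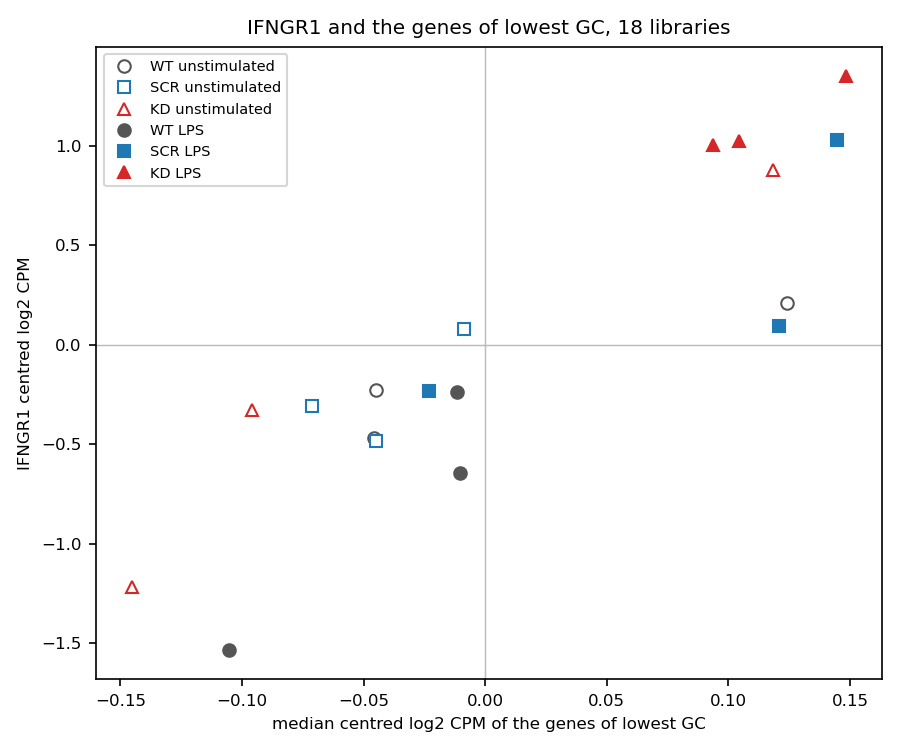
Log2 CPM of IFNGR1, centred on its mean over the 18 libraries, against the median centred log2 CPM of the 812 tested genes of lowest GC content, with 1 point per library. The 3 KD LPS libraries lie at 1.00 to 1.35 on the vertical axis, and the lowest point, at -1.54, is WT LPS library 6.

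The comparison that isolates the TRAFD1 siRNA, KD against SCR, called 0 of 8 members by edgeR in either state. The background was 0.066% of all genes without LPS and 0% with LPS. In unstimulated cells 1 member passed an unadjusted p under 0.05, against 12.6% of all genes. That member was IFNGR2, with 88.5, 97.2 and 94.0 CPM in KD below 117.1, 111.9 and 122.1 CPM in SCR (-0.33 ± 0.08, 95% interval -0.50 to -0.16, adjusted p = 0.0827). It was the only member whose groups did not overlap, against 15.1% of all genes, and DESeq2 called it (-0.32, adjusted p = 0.00809) and no other member. With LPS 4 members passed the unadjusted p, against 11.8% of all genes, and DESeq2 called 0. They were IFNAR2, IL10RA, IL10RB (-0.23 ± 0.09, adjusted p = 0.335) and IFNGR2 (-0.21 ± 0.08, adjusted p = 0.317), all lower in KD. These 4 and IL6R did not overlap between KD and SCR, where 21.5% of all genes did not. IL6R gave -0.03 ± 0.08 without LPS (95% interval -0.21 to 0.14), with a sign that turned in 2 alternatives and 2 fits without a library, and -0.13 ± 0.08 with LPS (-0.30 to 0.05).

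**Figure D4:**
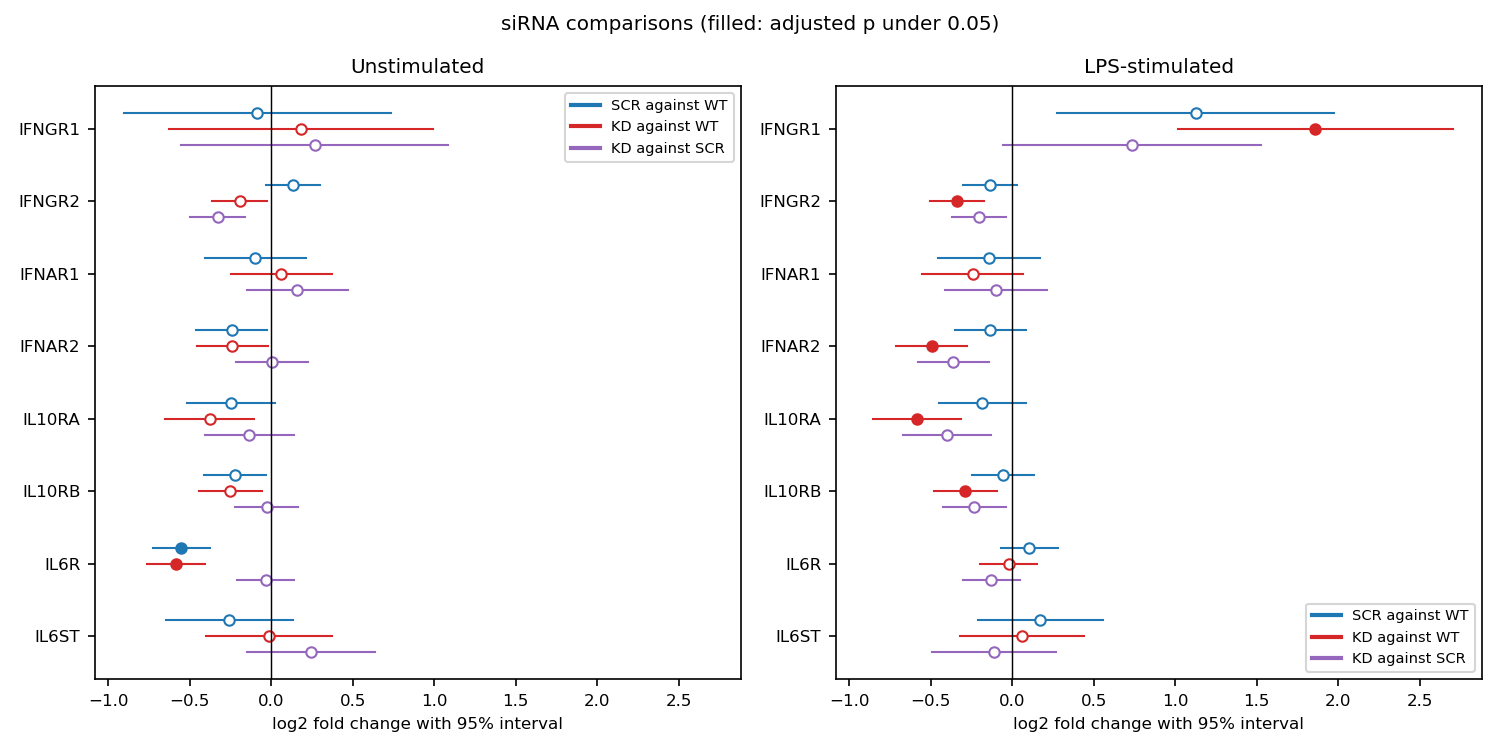
Log2 fold change with its 95% interval (lines) for SCR against WT, KD against WT and KD against SCR, without LPS (left) and with LPS (right), for each receptor gene. Filled points have an adjusted p under 0.05. They comprise IL6R in SCR and KD against WT without LPS and 5 genes in KD against WT with LPS, and no KD against SCR point is filled.

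Of 22 ligands of these receptor families, 6 had enough counts to be tested. IFNG had 0 counts in all 18 libraries, and a count of 0 allows up to 3 counts, or 0.133 to 0.378 CPM depending on the library, for counting error only. IL10 reached at most 6 counts and IL6 at most 13 counts in a library. IFNB1, a ligand of the type I interferon receptor, was counted in every library, with 3 to 69 counts. Its levels without and with LPS were 0.628 ± 0.582 and 0.803 ± 0.522 CPM in WT, 0.854 ± 0.147 and 2.56 ± 1.99 CPM in SCR and 1.44 ± 1.57 and 2.46 ± 0.996 CPM in KD (SD, n = 3), and it was not called in any of the 12 comparisons. OSM, which encodes oncostatin M and had 7 to 36 counts, and IL11, with 1 to 29, were not called either. In WT, 3 of the 6 rose with LPS, where 7.01% of all genes did, and the median over the 6 was 0.94 on the log2 scale. EBI3, a subunit of IL-27 and IL-35, went from 0.0781 ± 0.0909 to 6.45 ± 2.81 CPM (n = 3, adjusted p = 1.30e-06), IL27 from 0.693 ± 0.133 to 2.49 ± 1.20 CPM (adjusted p = 0.0181) and IFNL1 from 1.47 ± 0.746 to 3.85 ± 0.772 CPM (adjusted p = 0.0156). EBI3, with 0 to 142 counts per library, was the 1 ligand called with LPS in SCR and the 1 called in KD, and none fell. IFNL1, a ligand of the receptor that IL10RB shares, was also higher in KD than in WT without LPS (1.41 ± 0.36, adjusted p = 0.0143).

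Of 16 other subunits of the same receptor families, 10 were tested. With LPS, 2 rose and 2 fell in WT, 2 rose and 1 fell in SCR, and 3 rose and 2 fell in KD, against 14.3%, 17.2% and 11.5% of all genes called. The median over the 10 was 0.0002, -0.17 and -0.20. IL12RB2, a chain of the IL-12 receptor, rose by 1.39 ± 0.24 in WT, by 1.26 ± 0.24 with SCR and by 0.99 ± 0.25 with KD. F3, tissue factor, which shares the class II receptor fold, rose by 0.96 ± 0.25, 1.28 ± 0.25 and 1.505 ± 0.25. IL20RB, which pairs with other chains to bind IL-19, IL-20 and IL-24, changed by -0.98 ± 0.19, -1.22 ± 0.19 and -1.39 ± 0.19, so that it fell in each condition. IL11RA, the IL-11-binding chain that uses IL6ST to signal, stood at 107.7 ± 2.18 CPM in unstimulated WT, 72.2 ± 2.12 in SCR and 73.4 ± 5.62 in KD. It was lower than WT by -0.58 ± 0.10 in SCR (adjusted p = 0.00341) and -0.55 ± 0.10 in KD (adjusted p = 0.00156), and it was also lower in KD than in WT under LPS (-0.69 ± 0.11, adjusted p = 0.000977).

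All 7 kinases and transcription factors of these pathways were tested. With LPS 0 were called in WT and 0 in KD, against 14.3% and 11.5% of all genes. In SCR 2 rose, where 8.64% of all genes did, namely STAT3 (1.05 ± 0.25, adjusted p = 0.00587) and JAK2 (0.45 ± 0.15, adjusted p = 0.0436). STAT2 was the 1 called in KD against WT under LPS, where 10.8% of all genes were, and it was lower in KD (-0.30 ± 0.10, adjusted p = 0.0459). Of 11 negative regulators, none fell with LPS, while 3 rose in WT, 4 in SCR and 4 in KD, against 7.01%, 8.64% and 6.41% of all genes. Their median was 0.17, 0.30 and 0.27. PTPN1, a phosphatase that acts on JAK2 and TYK2, rose by 0.93 ± 0.10 (WT), 0.74 ± 0.10 (SCR) and 0.54 ± 0.10 (KD). Its LPS levels were 422 ± 23.3, 334 ± 11.8 and 246 ± 12.5 CPM, in the same order, and KD against WT gave -0.78 ± 0.10 (adjusted p = 0.000441). Without LPS, PTPN1 was lower in KD than in WT (-0.39 ± 0.10, adjusted p = 0.0185) and PTPN6, which encodes another phosphatase, was higher (0.49 ± 0.13, adjusted p = 0.0138). SOCS3, which inhibits signalling through IL6ST, rose by 2.48 ± 0.47 in SCR and 1.90 ± 0.44 in KD, and SOCS1, which inhibits interferon signalling, by 1.17 ± 0.35 and 1.32 ± 0.34.

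Of 15 interferon target genes tested, none fell with LPS, while 9 rose in WT, 10 in SCR and 7 in KD, against 7.01%, 8.64% and 6.41% of all genes. The median over the 15 was 0.33, 0.47 and 0.27, beside -0.03, -0.03 and -0.003 over all genes. CXCL10, a chemokine, went from 2.26 ± 1.61 to 304 ± 14.6 CPM in WT, from 9.15 ± 1.53 to 268 ± 23.8 CPM in SCR and from 4.94 ± 1.01 to 204 ± 37.1 CPM in KD. Without LPS it was higher in SCR than in WT (1.89 ± 0.28, adjusted p = 0.000615) and higher in KD than in WT (1.03 ± 0.30, adjusted p = 0.0308), and its response to LPS was smaller in SCR than in WT (-2.07 ± 0.35, adjusted p = 0.00740). The guanylate-binding protein gene GBP1 rose by 3.54 ± 0.25 (WT), 2.50 ± 0.24 (SCR) and 1.89 ± 0.24 (KD), and its response was smaller in KD than in WT (-1.65 ± 0.34, adjusted p = 0.0369). Without LPS, 4 of the 15 were called in KD against WT, where 11.7% of all genes were, and all 4 were higher in KD. Beside CXCL10 these were IFIT2 (0.78 ± 0.13, adjusted p = 0.000738), GBP1 (1.06 ± 0.27, adjusted p = 0.0141) and ISG15 (0.44 ± 0.14, adjusted p = 0.0476). CXCL10 and GBP1 (1.00 ± 0.27, adjusted p = 0.0437) were the 2 called in SCR against WT without LPS, both higher in SCR, where 3.23% of all genes were called. With LPS, 3 were called in KD against WT, where 10.8% of all genes were. IRF1, a transcription factor induced by interferon-γ, was lower in KD (-0.56 ± 0.10, adjusted p = 0.00293), as was the antiviral gene MX1 (-0.27 ± 0.08, adjusted p = 0.0385), and IFIT2 was higher (0.55 ± 0.13, adjusted p = 0.0122).

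None of 9 tested STAT3 target genes fell with LPS, while 3 rose in WT, 5 in SCR and 5 in KD, against 7.01%, 8.64% and 6.41% of all genes. Their median was 0.45, 0.76 and 0.79. BCL3, a nuclear regulator of NF-kB, went from 25.4 ± 6.98 to 182 ± 10.2 CPM in WT, a log2 fold change of 2.86 ± 0.17, and rose by 1.91 ± 0.16 in SCR and 1.89 ± 0.16 in KD. The kinase gene PIM1 rose by 1.70 ± 0.26, 1.53 ± 0.26 and 2.07 ± 0.26. Without LPS, BCL3 and JUNB were higher and MCL1 was lower in KD than in WT, and with LPS CEBPD was higher (0.69 ± 0.22, adjusted p = 0.0453). BCL3 and JUNB were also higher in SCR than in WT without LPS (0.76 ± 0.17 and 0.51 ± 0.12, adjusted p = 0.0133 and 0.0180). In KD against SCR 0 genes of any of these lists were called in either state. Of all genes, 0.066% were called there without LPS and 0% with LPS, so that a count of 0 is not particular to these lists.

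The tested genes whose profile over the 18 libraries was closest to that of each called member were also listed, by the root mean square (RMS) difference between log2 CPM profiles centred on their own means. PTPN1 was closest to IL10RA (RMS 0.103), and CBL, a ubiquitin ligase, to IL6R (0.0918). TRIM25 was among the nearest pair for IFNAR2 (0.113, after ZBED1 at 0.107), and SLC11A2 and BID were the nearest pair for IFNGR2 (0.138 and 0.140). TGOLN2 was closest to IL10RB (0.0737), SRRM1 to IL6ST (0.173) and CHCHD3 to IFNGR1 (0.196). Between members, the closest profiles were IL10RB and IL6R (0.172), and the 2 chains of the interferon-γ receptor were 0.897 apart, against 0.211 for those of the type I interferon receptor, 0.428 for IL10RA and IL10RB and 0.505 for IL6R and IL6ST. The low and variable IFNGR1 was 0.740 to 0.961 from every other member, so that its distance was not particular to IFNGR2.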

How the data were processed

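RNA of THP-1 cells was measured by 3′ sequencing (QuantSeq) in 18 libraries. According to the methods of the study and the submitters' processing notes, the authors aligned reads with HISAT to GRCh37 and counted those in the last 500 bases of each Ensembl 75 gene with featureCounts. The deposited table holds raw read counts, of which all 18 columns were used and 0 left out. Counting near the 3′ end can miss transcripts that end elsewhere. Without molecular identifiers, limits from a count of 0 cover counting error only. Symbols and coordinates were from GENCODE v44lift37. Groups were taken from the labels. No library pair of a group held identical values, with at most 2.34% of tested genes sharing a count.

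Genes were filtered with filterByExpr by group, which left 16678, and 1 mean per group was fitted with edgeR 4.0.16 in R 4.3.3 (TMM, quasi-likelihood F test). All genes were fitted together, because 3 libraries against 3 cannot go below 0.1 in an exact permutation test of 1 gene alone. P-values were adjusted by Benjamini-Hochberg over all genes tested in each of 12 contrasts, with a threshold of 0.05. The SE was taken as the log2 fold change over the square root of F. The fit was tested on simulated data for LPS in WT over 16234 genes. Of 100 genes changed by a log2 of 1, 64% were called in the right direction, and of 100 changed by 2, 84%, with 8 false calls. The simulated spread followed the level alone, only these genes changed, and those lost to the filter counted as not called. In the data 2380 genes were called for LPS in WT and the spread differs by gene, so that these figures describe the simulated setting only. The members, the pathway and marker lists and the rule for named genes were chosen with earlier results of these data known. The rule names the 8 members, TRAFD1, at most 4 called genes per list and contrast with the smallest adjusted p, the readthrough gene and the 2 genes nearest in profile to each called member. TMEM50B and the single monocyte markers were named after the annotation and the values were seen, as were IL6 and the other ligands with few counts.

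Alternatives were median-of-ratios scaling, no filter on low counts, DESeq2 1.42.0, a fit to the compared groups alone, a replicate block, the call rule of the study, leaving out each library, and a GC correction in 20 bins chosen after seeing the data. Pairing was checked by correlating, over 16678 genes, the deviations of same-numbered libraries from their group means. In SCR and WT with LPS all 3 pairs exceeded 0.1 (0.261, 0.163 and 0.253), so that the numbers were taken as pairing there. The main fit nevertheless ignored the pairing, and the SCR against WT values given for LPS are unpaired. Pairing entered only through the replicate block, which called 135 genes in that comparison against 19, and 0 members in either fit. The block was not fitted to the LPS responses or to their differences between conditions. In the other 5 pairs of groups not all 3 correlations exceeded 0.1, and they ran from -0.0875 to 0.304.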

Additional observations from a re-analysis of the deposited data

Results flagged for a closer look

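The LPS response of IL6R differed between conditions by a test of the difference itself. It was 0.66 higher in SCR than in WT (SE 0.12, edgeR adjusted p = 0.0161) and 0.56 higher in KD than in WT (SE 0.12, adjusted p = 0.0424), on the log2 scale. IL6R fell with LPS in WT, where all 3 LPS libraries were below all 3 unstimulated ones, and overlapped between the states in SCR and KD. Both differences share the WT libraries, and neither was fitted with the replicate block. The level in unstimulated WT, 573 ± 11.6 CPM, was the value that stood apart, and the other 5 group means lay between 377 and 412 CPM.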

How the results depend on the processing

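For single members, 53 results are summarised, those with an unadjusted p under 0.05 or of IL6R or IFNGR1. Of 292 values from other fits to all libraries, 274 kept their direction and their side of the threshold, 5 lost a call, 9 gained one and 4 turned. Of 366 values without 1 library these numbers were 315, 35, 6 and 10. The call rule of the study is not among these and kept 3 of the 21 member calls. The cause of a change below was not tested.

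Members called in KD against SCR without LPS numbered 1 with DESeq2, and with LPS 1 without the filter on low counts. In SCR against WT with LPS the number was 1 without that filter. In KD against WT without LPS it was 2 without the filter, 2 with the replicate block and 1 to 3 without 1 library, and with LPS it was 2 to 4 without 1 library. For LPS in WT it was 3 to 4 and for LPS in KD 2 to 4 without 1 library. For the difference of the LPS response between SCR and WT it was 2 without the filter and 0 to 1 without 1 library. Between KD and WT it was 0 with median-of-ratios scaling, 2 without the filter, 0 in a fit to the 4 groups alone and 0 to 2 without 1 library. Under the call rule of the study, which needs a log2 fold change over 1 and an adjusted p of at most 0.01, it was 0 in SCR against WT and KD against WT without LPS, 1 in KD against WT with LPS, 1 for LPS in WT, 0 in SCR, 1 with KD, and 0 for both differences of the LPS response against WT. The block was fitted only to the comparisons between conditions within a state, and not to the LPS responses or their differences. It added IL10RA (-0.39, adjusted p = 0.00810) in KD against WT without LPS, where the numbers were not shown to pair. It changed no other member call in those comparisons. Of 6 libraries, 6 correlated best with their own number in SCR against WT with LPS and 2 to 3 in the other pairs of groups.

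Of 96 pairs of a member and a comparison, 21 turned sign in at least 1 fit, none of them a called one, and 13 turned only without 1 library. IL6R in KD against SCR without LPS was 0.0097 in a fit to the groups alone, 0.0071 with the GC correction and -0.089 to 0.030 without 1 library. IL6R in KD against WT with LPS was 0.043 with the GC correction and -0.085 to 0.042 without 1 library. For LPS in KD it was 0.014 and -0.062 to 0.040. IFNGR1 without LPS ran, over the fits without 1 library, from -0.49 to 0.63 in KD against SCR, from -0.58 to 0.54 in KD against WT and from -0.26 to 0.14 in SCR against WT. Over the other fits to all libraries, IL6ST ran from -0.067 to 0.072 in KD against WT with LPS, from -0.027 to 0.038 without LPS and from -0.088 to 0.077 for the LPS response in KD minus WT. IFNAR1 for LPS in KD was 0.008 and ran from -0.072 to 0.0017, and IL10RB in KD against SCR without LPS from -0.032 to 0.016. IFNAR1 in KD against WT without LPS was 0.063 and ran from -0.12 to 0.15 without 1 library.

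Over all genes, calls in KD against SCR without LPS numbered 11, against 239 with DESeq2, 320 without the filter and 183 with the block, and with LPS 0, against 137, 425 and 85. In SCR against WT they numbered 538 without LPS, against 918, 768 and 934, and 19 with LPS, against 207, 593 and 135. For the LPS response they numbered 39 between SCR and WT and 60 between KD and WT, against 82 and 256 with DESeq2, and 241 and 729 without the filter, and between KD and SCR 0, against 132 without the filter. With the GC correction KD against SCR gave 44 without and 9 with LPS. In a fit to the groups alone the counts were 0 and 161 in KD against SCR without and with LPS, 47 in SCR against WT with LPS, 280 (against 1951) and 3235 (against 1808) in KD against WT without and with LPS, 847 (against 1912) for LPS in KD and 23 for the difference between KD and WT. The study's rule called 0 to 180 genes between conditions, 344 to 548 for LPS and 0 to 13 for the differences. Without 1 library, KD against SCR without LPS ran from 1 to 52 (highest without KD unstimulated 1), SCR against WT from 193 (without SCR unstimulated 1) to 510 without LPS and from 0 (without SCR LPS 5) to 14 with LPS, and KD against WT from 962 (without WT unstimulated 3) to 1934 without LPS and from 376 (without WT LPS 6) to 1428 with LPS. LPS in SCR ran from 1789 (without SCR LPS 4) to 2376 and LPS in KD from 1098 (without KD LPS 5) to 3150 (without KD unstimulated 1). The difference of the response ran from 17 to 91 between SCR and WT (without WT unstimulated 1 and 2) and from 21 (without KD LPS 6) to 1313 (without KD unstimulated 1) between KD and WT. The readthrough gene had 0 counts, so that adding it gave no value. IFNGR1 had 41 to 512 counts per library, IL6ST 158 to 462 and each other member at least 442, with 3 libraries per group.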
